A study of Mus musculus with 10 samples.

Results

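The synaptotagmins are vesicle proteins that link calcium to membrane fusion, and 10 of them were followed here in mouse cerebral cortex: Syt1, Syt2, Syt3, Syt4, Syt5, Syt7, Syt10, Syt11, Syt12 and Syt17. The genes were chosen by symbol, and all 10 were found among the 14276 genes of the count table. RNA-seq libraries of ribosomal RNA-depleted total RNA came from frozen cortex of C57BL/6 mice aged 3 months, 5 control and 5 with a conditional knockout of Brap (BrapcKO), a ubiquitin ligase known to restrain Ras signalling to MAP kinases. Control libraries comprised 3 of genotype Brap flox/wt without Cre (Cre-) and 2 of flox/flox without it, and BrapcKO libraries 3 of flox/ko with Cre (Cre+) and 2 of flox/flox with it, where flox is an allele that Cre recombinase can delete and ko a deleted allele. Every library therefore carried at least 1 flox allele, and Cre was present in all BrapcKO and absent from all control libraries, so an effect of Cre cannot be told apart from the knockout. Neither the Cre driver nor separate animals are given in the labels, and p-values here reflect only library-to-library spread, which may be partly technical. Libraries are named by group and title number: control 08, 09, 22, 23 and 24, and BrapcKO 04, 05, 06, 07 and 21.

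A synaptotagmin has an N-terminal anchor in most family members and a pair of C2 domains that, in the calcium-binding members, insert into membranes and engage SNARE proteins when calcium enters. Syt1, Syt2 and the closely related Syt5 are sensors of fast exocytosis, while Syt3, Syt7 and Syt10 bind calcium in other compartments or on slower time courses. Syt4, Syt11, Syt12 and Syt17 bind little or no calcium through at least one of their C2 domains. In forebrain Syt1 is the main sensor of synchronous transmitter release.

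Library totals ran from 17188901 to 28991874 counts. The sample titles carry a code, B1 or B2, left unexplained, that split the libraries unevenly: 2 control and 4 BrapcKO libraries were B1 (17188901 to 20955211 counts) and 3 control and 1 BrapcKO were B2 (26356508 to 28991874). Ddx3y, on the Y chromosome, stood at 115 to 148 CPM (read counts scaled to library size, with TMM factors) in 5 libraries, 1 control (23) and 4 BrapcKO (05, 06, 07, 21), and reached at most 0.052 elsewhere, so sex was uneven between the groups. Brap stood at 88.4 ± 8.58 CPM in control and 104 ± 9.15 in BrapcKO (SD, n = 5 each), a log2 difference of 0.23 (edgeR adjusted p = 0.18), so the level of its transcript was not lower under the knockout label and does not check that label. All 6 excitatory neuron markers of cortex were present, with Slc17a7, the vesicular glutamate transporter, at 913 CPM in control and 1094 in BrapcKO. Differences below are BrapcKO minus control from edgeR's quasi-likelihood test with the title code as a term, adjusted over all 14276 genes, and "rose" or "fell" means an adjusted p under 0.05.

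The windows upstream of the start sites are shown for 3 genes: Syt1, the one gene of the 10 that was called, Syt10, not called and holding a CRE core, and Syt6, a family member outside the 10 with the largest difference among the synaptotagmins measured. They are 250 bases before a RefSeq start in GRCm38.p6, on the gene's strand, with TGACG (the core of the CRE, bound by CREB) and GGGCGG (the GC box, bound by Sp factors) in capitals, on either strand. RefSeq gives 2 starts with a window for Syt1 and 3 for Syt6, and the outermost is shown. The Syt1 window is chr10:109010976-109011225 (minus strand), the Syt10 window chr15:89841861-89842110 (minus strand) and the Syt6 window chr3:103574995-103575244 (plus strand).
Syt1: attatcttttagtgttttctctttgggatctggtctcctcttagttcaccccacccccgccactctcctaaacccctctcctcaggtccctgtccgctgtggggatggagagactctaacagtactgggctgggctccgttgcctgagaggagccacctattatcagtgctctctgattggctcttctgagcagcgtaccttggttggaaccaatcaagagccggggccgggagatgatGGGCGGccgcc
Syt10: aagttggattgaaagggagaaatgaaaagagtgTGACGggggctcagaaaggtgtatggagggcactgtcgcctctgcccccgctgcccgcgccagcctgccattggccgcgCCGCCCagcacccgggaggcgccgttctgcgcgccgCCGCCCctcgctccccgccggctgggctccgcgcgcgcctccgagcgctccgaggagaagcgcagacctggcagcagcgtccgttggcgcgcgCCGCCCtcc
Syt6: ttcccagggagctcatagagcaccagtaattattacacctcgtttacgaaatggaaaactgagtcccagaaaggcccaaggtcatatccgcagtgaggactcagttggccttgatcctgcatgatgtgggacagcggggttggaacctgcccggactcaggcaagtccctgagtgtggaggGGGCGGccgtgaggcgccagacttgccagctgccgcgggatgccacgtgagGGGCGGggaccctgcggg
The Syt1 window was 56.4% G and C, the Syt10 window 72% and the Syt6 window 60.4%. The other Syt1 window was 42.8% G and C with 0 GC boxes, and the other 2 Syt6 windows were 62.8% and 66% with 2 and 1. The RefSeq windows used here covered 5 of the 10 genes (Syt1, Syt2, Syt3, Syt10 and Syt11), 7 windows in all. Syt4 was left out of the window search, so its promoter was not examined. The counts that follow do not cover it. The full CRE, TGACGTCA, was in 0 of the 7, against 1.55% of 32851 promoter windows of the same length. TGACG was in 2 of the 7, Syt2 and Syt10, against 17.8% of all windows, a count that includes full CREs. GGGCGG was in 5 of the 7, against 32.7%. These are matches of letters only. The 7 windows come from 5 genes and ran from 42.8% to 76% G and C, where the median of all windows was 52.4%.

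Per kilobase of exon, Syt1 was the most abundant of the 10 in control cortex and Syt12 the least. Syt1 stood at 252 ± 7.48 CPM per kilobase (SD, n = 5), Syt11 at 155 ± 7.67, Syt4 at 75.5 ± 9.17, Syt5 at 48.5 ± 6.25 and Syt7 at 41.7 ± 5.09. Lower levels per kilobase were those of Syt3 at 15.7 ± 2.06, Syt2 at 11.3 ± 2.87, Syt17 at 9.48 ± 3.26, Syt10 at 8.42 ± 2.48 and Syt12 at 6.64 ± 1.45. The control ranges of Syt1, Syt11 and Syt4 were apart from each other and from the rest, and those of Syt7 and Syt3 were apart. The neighbours Syt5 and Syt7 overlapped, and so did each neighbouring pair from Syt3 down to Syt12, so their order is not resolved by the spread between libraries. Of the summed level of the 10 genes, Syt1 made up 40.4% ± 0.945 in control and 36.1% ± 1.66 in BrapcKO, and Syt11 24.9% ± 0.67 and 27.8% ± 1.55.

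**Figure D1:**
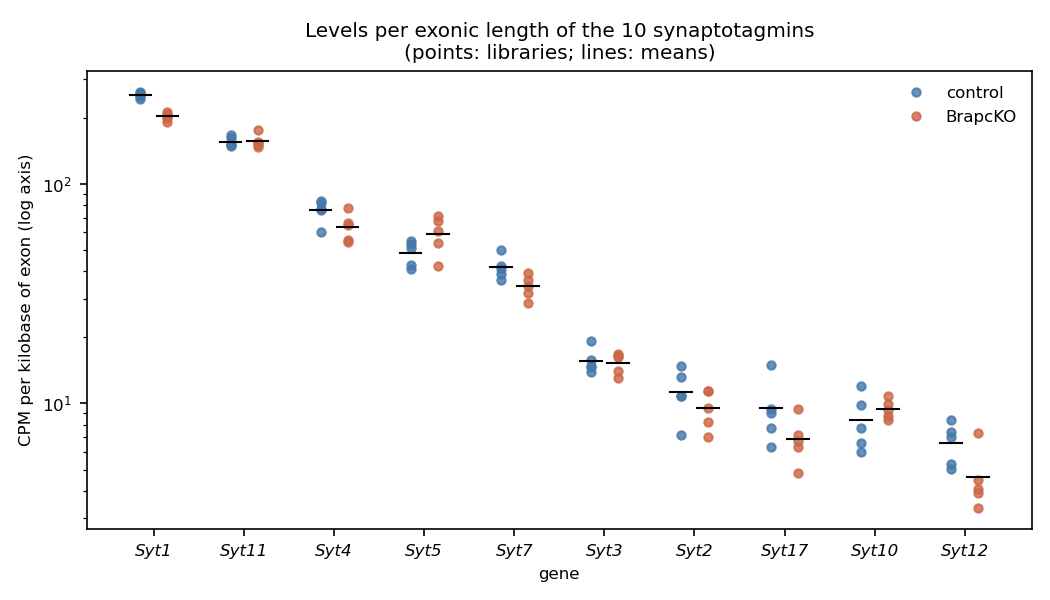
CPM per kilobase of exon (log axis) of the 10 synaptotagmins in each library, control in blue and BrapcKO in orange, lines at the means of 5 libraries, genes ordered by control mean. Syt1 is highest, at 252 in control and 203 in BrapcKO, and the control ranges of the last 5 genes overlap from neighbour to neighbour.

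Of the 10 genes 1 fell and 0 rose with the title code as a term, where 8.07% of all genes were called, 4.95% as lower and 3.12% as higher, so the share called was near that of the whole table. With group as the only term 1 of the 10 was called (4.32% of all genes), and with the Y-linked score added, 0 of the 10 (2.3% of all genes), the score being the mean log2 CPM of 4 genes on the Y chromosome. The groups did not overlap for 1 of the 10, and for 6.82% of all genes. The median difference of the 10 was -0.23 against 0.01 over all genes. It was negative for 8 of the 10 genes and for 6902 of all 14276. Of these 8, Syt3 (-0.03) and Syt11 (-0.01) were near 0 and changed sign in some other fits. Unadjusted p was under 0.05 for 4 of the 10, Syt1, Syt5, Syt7 and Syt12, and for 22.2% of all genes. In tissue RNA, fewer cells of a type and less RNA per cell cannot be told apart.

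**Figure D2:**
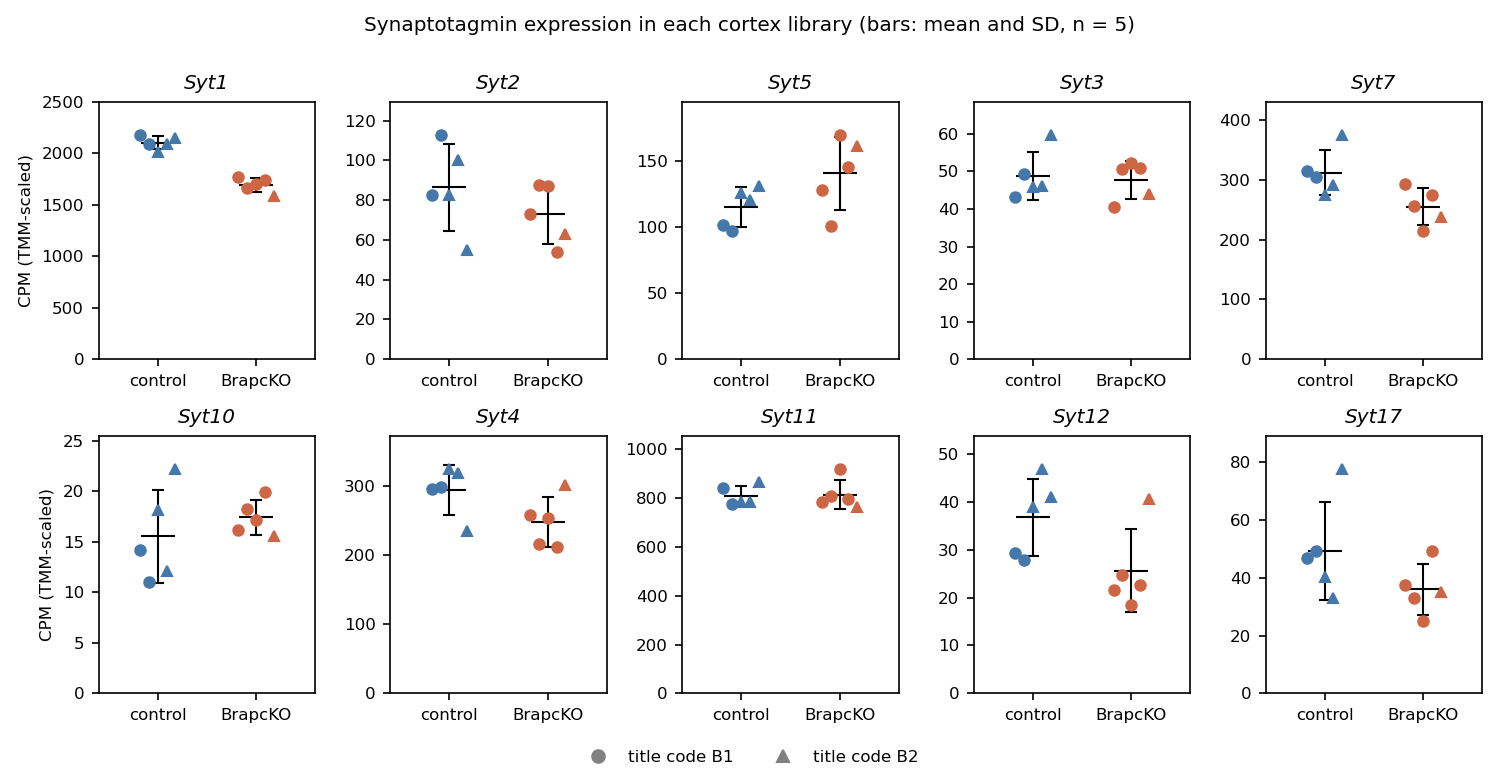
CPM of each gene in every library by group, circles for title code B1 and triangles for B2, with the mean and SD of 5 libraries as black bars and axes starting at 0. The groups are apart only for Syt1, at 2014 to 2176 CPM in control and 1590 to 1766 in BrapcKO.

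Among the fast sensors, Syt1 fell by a small and even amount. Syt1 (ENSMUSG00000035864.14, minus strand of GRCm38 chromosome 10, 108497650 to 109010982) reached 2176, 2092, 2014, 2089 and 2147 CPM in control 08, 09, 22, 23 and 24. The BrapcKO libraries 04, 05, 06, 07 and 21 had 1766, 1663, 1701, 1738 and 1590 CPM. All 5 BrapcKO libraries lay below all 5 controls, as they did in 3.71% of all genes. The means were 2104 ± 62.4 and 1691 ± 68.6 CPM, a log2 difference of -0.34 (SE 0.06, 95% interval -0.48 to -0.20, edgeR adjusted p = 0.0063), or a change of -21.1%. Within B1 the means were 2134 and 1717 CPM, and within B2 2083 in control and 1590 in the single BrapcKO library, BrapcKO 21, with the BrapcKO libraries below the controls in both codes. With the Y-linked score added the difference was -0.32 (adjusted p 0.086), and without BrapcKO 21 it was -0.32 (adjusted p 0.058), so the call was lost in both while the size stayed close.

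Syt2, the fast sensor of parvalbumin interneurons and of many hindbrain synapses, was not called. Syt2 (ENSMUSG00000026452.15, on the plus strand of chromosome 1, 134646677 to 134762593) had 82.7, 113, 82.4, 100 and 54.7 CPM in the controls in the order given and at 72.9, 87.4, 87.2, 54 and 62.8 in BrapcKO. The groups overlapped widely, with control 24 among the lowest. The difference was -0.36 (SE 0.19, interval -0.77 to 0.05, adjusted p = 0.29 by edgeR), and it was -0.23 without control 09 and -0.57 when the Y-linked score was added. Pvalb, the calcium buffer that marks those interneurons, stood at 40.1 ± 8.45 CPM in control and 33.2 ± 6.85 in BrapcKO (-0.27, adjusted p 0.43). Of 6 markers of these cells 1 fell, Kcnc2, a fast potassium channel, and 1 rose, Tac1, a neuropeptide precursor also made in striatum. Over all genes 4.95% fell and 3.12% rose. Kcnc2 and Tac1 were not called with group as the only term (edgeR adjusted p 0.17 and 0.056) or with the Y-linked score added (0.13 and 0.086). The summed level of the 6 markers was 640 to 825 CPM in control and 662 to 741 in BrapcKO. BrapcKO 07, with the lowest Syt2, had the highest sum of the BrapcKO libraries, while control 24, lowest of the controls in Syt2, had the lowest sum of all. The part of these cells in the Syt2 values was not tested.

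Syt5 lay on the other side of zero. Syt5 is a calcium sensor found on dense-core and synaptic vesicles, and part of the literature exchanges its name with that of Syt9. Syt5 (ENSMUSG00000004961.7, chromosome 7, 4539765 to 4547541, minus strand) stood at 102, 97.6, 126, 121 and 131 CPM in the controls and at 128, 101, 170, 146 and 162 in BrapcKO. BrapcKO 06, 07 and 21 lay above every control, and BrapcKO 05 lay among the lowest controls. The difference was 0.42 (SE 0.13, interval 0.15 to 0.69), with an edgeR adjusted p of 0.061. DESeq2 gave an adjusted p of 0.02, and without BrapcKO 05 the edgeR difference was 0.50 with an adjusted p of 0.0087. With group as the only term it was 0.29 (adjusted p 0.3), and adding the Y-linked score gave 0.41 (adjusted p 0.28), so the call depended on the fit.

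Of Syt3, Syt7 and Syt10, none was called. Syt7, the slow sensor of facilitation and asynchronous release, stood at 315, 305, 274, 292 and 375 CPM in the controls and at 294, 256, 215, 274 and 238 in BrapcKO (ENSMUSG00000024743.15, chromosome 19, 10389090 to 10453180, plus strand). The 2 groups overlapped between 274 and 294 CPM, and within B1 all 4 BrapcKO libraries lay below both controls. The difference was -0.31 (SE 0.11, interval -0.55 to -0.06, edgeR adjusted p = 0.12), and adding the Y-linked score gave -0.17 (adjusted p 0.64). Its exons share 384 bases with a noncoding gene on the other strand, and no source used here says whether counting was stranded.

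Syt3 and Syt10 are calcium-binding members, Syt3 known in neurons for the removal of AMPA receptors from the synapse and Syt10 for the release of the growth factor IGF-1 in the olfactory bulb. Syt3 (ENSMUSG00000030731.13, chromosome 7, 44384102 to 44400187) ran from 43.2 to 59.7 CPM in control and from 40.6 to 52.3 in BrapcKO. Its difference was -0.03 (SE 0.12, interval -0.28 to 0.23, edgeR adjusted p = 0.93), an interval that leaves out changes of much over 0.28 in either direction. Syt10 (ENSMUSG00000063260.2, chromosome 15, 89782393 to 89841860), at 215 to 575 counts a library the least counted of the 10, stood at 14.2, 11.1, 18.1, 12.1 and 22.2 CPM in the controls and 16.1, 18.3, 17.2, 19.9 and 15.6 in BrapcKO. In B1 all 4 BrapcKO libraries lay above both controls and in B2 the groups overlapped. The difference was 0.26 (SE 0.19, interval -0.15 to 0.67, adjusted p = 0.47 by edgeR). It was 0.09 without control 09, 0.50 without BrapcKO 21 and 0.47 when the Y-linked score was added, and it was not called in any of these.

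The members that bind little or no calcium were not called either. Syt4, induced by neuronal activity in brain and known to act on dense-core vesicles, stood at 295, 297, 324, 319 and 234 CPM in the controls and at 258, 216, 253, 212 and 301 in BrapcKO (ENSMUSG00000024261.5, chromosome 18, 31437808 to 31447406, minus strand). Control 24 was far below the other 4 controls, and BrapcKO 21 lay above the other 4 BrapcKO libraries. The difference was -0.20 (SE 0.11, interval -0.45 to 0.05, edgeR adjusted p = 0.34), -0.26 without control 24 (adjusted p 0.066) and -0.34 without BrapcKO 21 (adjusted p 0.23). Genes of the activity response were lower in the same libraries: of 15 measured, 14 fell, where 4.95% of all genes did. Among them were the transcription factors Fos (-2.40), Egr2 (-2.37) and Nr4a2 (-1.17) and the synaptic protein Arc (-1.94), with edgeR adjusted p of 0.00052, 0.0012, 0.00057 and 0.001. With group as the only term 14 of the 15 were called (4.32% of all genes), and with the Y-linked score added 9 (2.3% of all genes). The summed level of the 15 ran from 1121 to 1912 CPM in control and from 395 to 641 in BrapcKO. Control 24, lowest of the controls in Syt4, had the lowest sum of its group (1121 CPM). Control 23, at 319 CPM of Syt4, had the highest (1912), while control 22, highest of the controls in Syt4, had 1177. BrapcKO 21, highest of its group in Syt4, had a sum of 461, and BrapcKO 04, next highest at 258, had the highest sum (641). A link between the sum and Syt4 was not tested. The exons of Syt4 share 566 bases with an antisense gene.

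Syt11, which restrains endocytosis and vesicle release and is found in neurons and glia, differed by little between the groups. Syt11 (ENSMUSG00000068923.14, chromosome 3, 88744700 to 88775164, minus strand) stood at 840, 774, 785, 784 and 863 CPM in the controls and at 782, 808, 916, 796 and 763 in BrapcKO. The libraries of both groups were interleaved. The difference was -0.01 (SE 0.08, interval -0.18 to 0.16, edgeR adjusted p = 0.96).

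Syt12, a calcium-independent synaptic vesicle protein, varied more with the title code than with the group. Syt12 (ENSMUSG00000049303.10, chromosome 19, 4445908 to 4477447, minus strand) stood at 29.3 and 27.8 CPM in the B1 controls 08 and 09 and at 39, 46.7 and 41 in the B2 controls 22, 23 and 24. The B1 libraries BrapcKO 04, 05, 06 and 07 had 21.6, 24.7, 18.5 and 22.6 CPM, and the B2 library BrapcKO 21 had 40.6. B2 exceeded B1 by 0.70 on the log2 scale (SE 0.11, edgeR adjusted p = 0.00034), which made Syt12 the 1 gene of the 10 called for the title code, where 25.1% of all genes were. The group difference was -0.26 with the code (SE 0.11, interval -0.49 to -0.03, adjusted p 0.16) -0.52 with group as the only term (adjusted p 0.22) and -0.40 without BrapcKO 21 (adjusted p 0.12). Within B1 the mean was 28.6 CPM in control and 21.8 in BrapcKO, and within B2 it was 42.2 against 40.6 in the single BrapcKO library. Its exons share 950 bases with a transcript on the other strand.

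Syt17, a relative without the usual membrane anchor that is known at the Golgi, spread widely within the controls. Syt17 (ENSMUSG00000058420.8, chromosome 7, 118380717 to 118448222, minus strand) stood at 47, 49.1, 40.3, 32.9 and 77.5 CPM in the controls and at 37.4, 33, 25.1, 49.2 and 35.2 in BrapcKO. Control 24 was the highest library and the others overlapped. The difference was -0.45 (SE 0.26, interval -1.01 to 0.12, edgeR adjusted p = 0.35), -0.29 without control 24 and -0.11 when the Y-linked score was added (adjusted p 0.92).

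**Figure D3:**
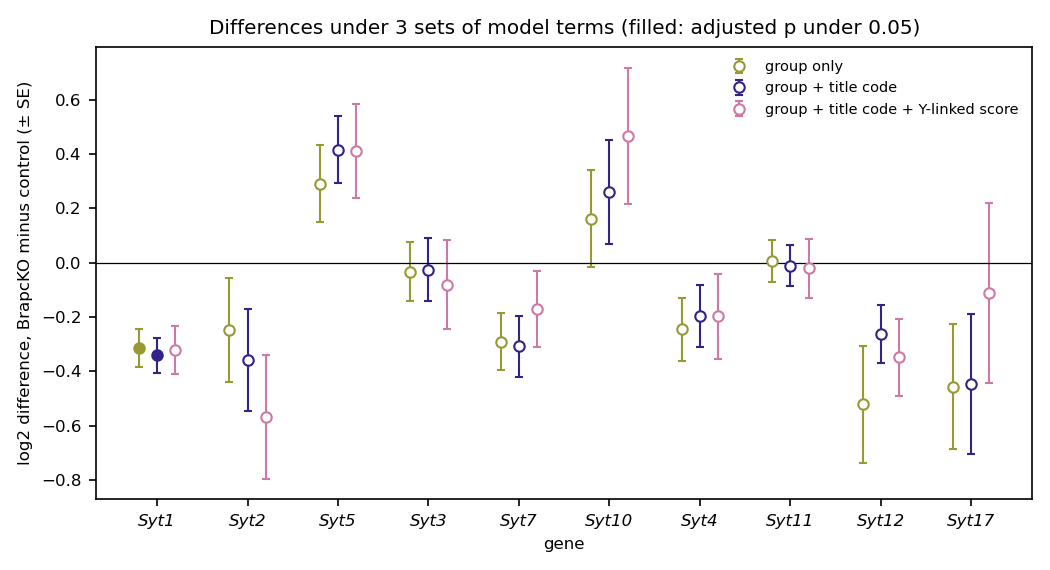
Log2 difference (BrapcKO minus control, ± SE) of each of the 10 genes with group as the only term, with the title code, and with the Y-linked score besides the code, filled where the adjusted p was under 0.05. Syt1 lies at -0.31, -0.34 and -0.32 in the 3 fits and is filled in the first 2, and no other gene is filled in any of them.

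The 2 genotypes within each group allowed the difference to be read in 2 ways. Ddx3y stood at 0.051 and 0 CPM in the flox/flox Cre- libraries (control 09 and 24). In the flox/flox Cre+ libraries (BrapcKO 05 and 06) it stood at 115 and 131 CPM. Sex therefore cannot be told apart from Cre in the flox/flox pair. In a fit of 4 genotype groups with the title code, Syt1 differed by -0.37 between flox/flox Cre+ and flox/flox Cre- (SE 0.10, edgeR adjusted p = 0.13) and by -0.33 for flox/ko Cre+ against flox/wt Cre- (SE 0.08, adjusted p 0.048). Of all genes 0.736% were called in the first of these and 4.84% in the second, and of the 10 synaptotagmins 0 and 1. The pairs of genotypes gave close values for Syt5 too, 0.41 and 0.42 (SE 0.21 and 0.16). They were farther apart for Syt17, at -1.17 and 0.00 (SE 0.28 and 0.21). Its difference between the pairs was -1.17 (interval -1.90 to -0.44, unadjusted p 0.005, adjusted p 0.66 by edgeR), and the flox/flox Cre- libraries were control 09 and control 24, the latter with the highest Syt17 level. Syt7 stood at -0.57 and -0.15 (unadjusted p of the difference 0.049, adjusted p 0.81). Neither difference between the pairs passed the adjusted threshold.

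Over the 10 libraries, the genes whose log2 CPM was most like that of Syt1 were Nxph3, a secreted neurexophilin that binds neurexins, with Pearson's r = 0.99, Cdk14, a cyclin-dependent kinase, with 0.99, and Fam19a1, a secreted protein of the TAFA family, with 0.98. All 3 were picked as the closest of all other genes over 10 libraries that differ in group and in sequencing depth, so the values describe the pattern only. Nxph3 and Fam19a1 fell by more than Syt1, with differences of -1.02 and -1.09, and Cdk14 by as much, with -0.34 (edgeR adjusted p 0.00054, 3.3e-05 and 0.0083).

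Among the other synaptotagmins measured, 6 of the 7 listed, 1 rose and 1 fell, where 3.12% of all genes rose and 4.95% fell. Syt6, a calcium-binding member of the subclass of Syt3 and Syt10, stood at 33.3, 33.3, 39.4, 37.2 and 24.7 CPM in the controls and at 60.1, 57.8, 86.6, 60.2 and 86.1 in BrapcKO, so the groups were apart. It rose by 1.12 (SE 0.16, interval 0.78 to 1.47, edgeR adjusted p = 0.0015), or 2.18-fold, and by 0.99 with the Y-linked score added (adjusted p 0.033). Syt16, a member that lacks the calcium-binding residues, stood at 107 to 125 CPM in control and 75 to 94.4 in BrapcKO and fell by 0.45 on the log2 scale (SE 0.07, adjusted p 0.0029). With the Y-linked score added it differed by -0.39 (adjusted p 0.06). Syt9, Syt13, Syt14 and Syt15 differed by -0.28, 0.03, -0.23 and -0.28 and were not called. Of 8 markers of striatum 5 rose, where 3.12% of all genes did. Among them were Penk, the enkephalin precursor (1.48), and Rgs9, which limits dopamine receptor signalling (1.04, edgeR adjusted p 0.0013 and 0.005). The summed level of the 8 was 533 to 1172 CPM in control and 925 to 1728 in BrapcKO, so the groups overlapped. Control 22 had the highest control sum (1172), above BrapcKO 04, 05 and 06 (925, 1115 and 1074), while its Syt6 was below theirs. Of these 8 markers 2 were called with group as the only term and 1 with the Y-linked score added. Their median difference was 0.59 and 0.72 in these fits, against 0.75 with the title code. Their part in the Syt6 level was not tested.

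Of 12 measured relatives with C2 domains, 2 fell and 2 rose, where 4.95% of all genes fell and 3.12% rose. With group as the only term 2 of the 12 were called (4.32% of all genes), and 2 with the Y-linked score added (2.3% of all genes). Rph3a, rabphilin, a Rab3 effector of synaptic vesicles, stood at 365, 310, 219, 245 and 247 CPM in the controls and at 167, 173, 160, 163 and 125 in BrapcKO, with the groups apart. It changed by -0.99 (SE 0.08, edgeR adjusted p = 4.2e-05) and by -1.01 with the Y-linked score (adjusted p 0.0013). Rph3a lies on chromosome 5, 650 kb from Brap, the gene that carries the altered allele. Sytl2, a synaptotagmin-like Rab27 effector, differed by -0.97 and Sytl5, of the same family, by 0.73 (adjusted p 0.0096 and 0.0044). Sytl2 was not called with group as the only term (-0.75, adjusted p 0.082), nor Sytl5 with the Y-linked score added (0.71, adjusted p 0.064). Doc2a, a high-affinity calcium sensor of spontaneous and asynchronous release, rose by 0.62 with the title code (adjusted p 0.026), and differed by -0.12 with group as the only term. It stood at 8.85 to 20.1 CPM in the B1 libraries and at 31.6 to 57.9 in the B2 libraries, and 1103 of its exon bases are shared with Ino80e on the other strand.

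**Figure D4:**
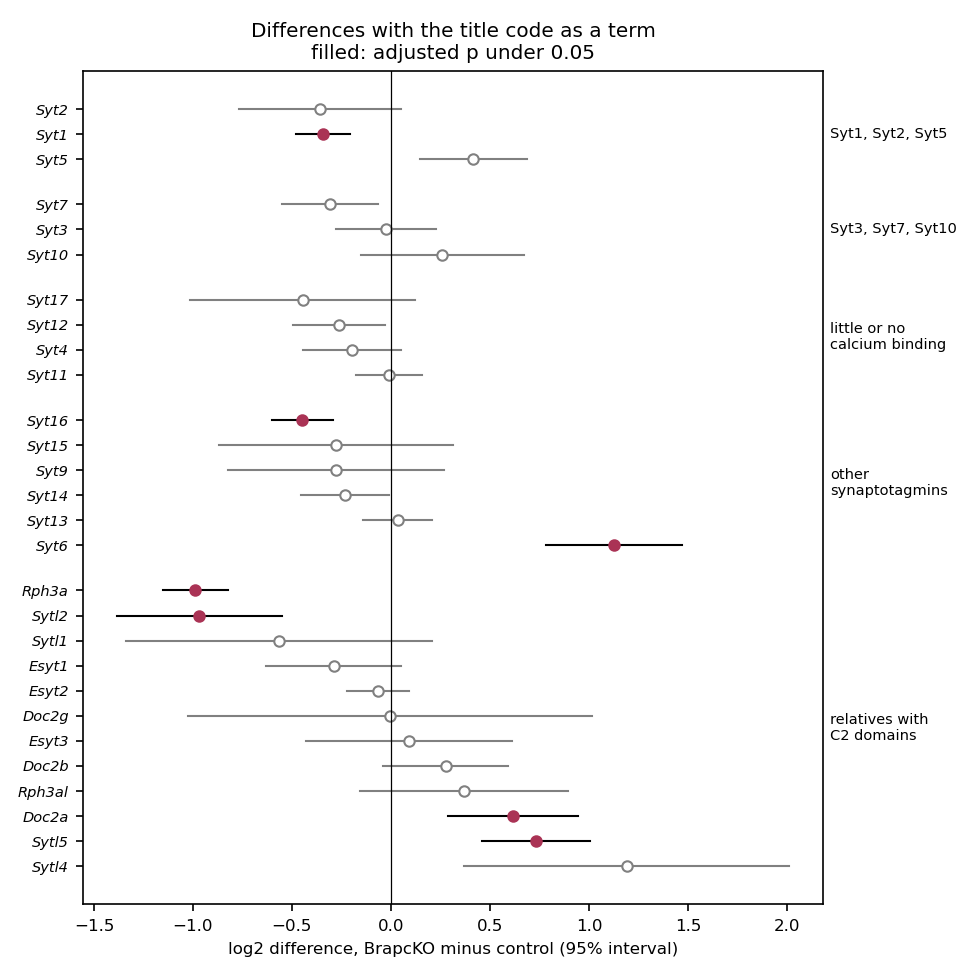
Log2 difference (BrapcKO minus control, title code as a term) with its 95% interval for the 10 synaptotagmins, the 6 other synaptotagmins and 12 relatives with C2 domains, filled where the adjusted p was under 0.05. Syt1 at -0.34 is the filled point among the 10, while Syt6 at 1.12 and Rph3a at -0.99 lie farther from 0.

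The SNARE and priming proteins with which synaptotagmins work were lower where they were called. Of 18 fusion partners 7 fell and 0 rose, with a median of -0.23. Over all genes 4.95% fell and 3.12% rose, with a median of 0.01. Rims1, an organiser of the active zone, had 421 to 557 CPM in control against 253 to 324 in BrapcKO (-0.87, edgeR adjusted p = 0.00021). The SNARE Stx1a, the priming factor Unc13a and the active zone protein Rims2 differed by -0.69, -0.48 and -0.33 (adjusted p 0.0076, 0.0082 and 0.013). Of the 18, 1 was called once the Y-linked score was added, where 2.3% of all genes were. Of 10 partners in vesicle sorting and retrieval 2 rose and 0 fell: Sv2c, a vesicle glycoprotein of the SV2 family that binds Syt1 and is abundant in basal ganglia, stood at 62.1 to 94.1 CPM in control and 158 to 220 in BrapcKO (1.13, adjusted p 0.00044). Ap2a2, a subunit of the AP-2 clathrin adaptor, differed by 0.57 (adjusted p 0.035), and by 0.42 with group as the only term (adjusted p 0.21). Sv2a and Sv2b, the relatives of Sv2c that prevail in cortex, differed by 0.02 and 0.16 and were not called.

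**Figure D5:**
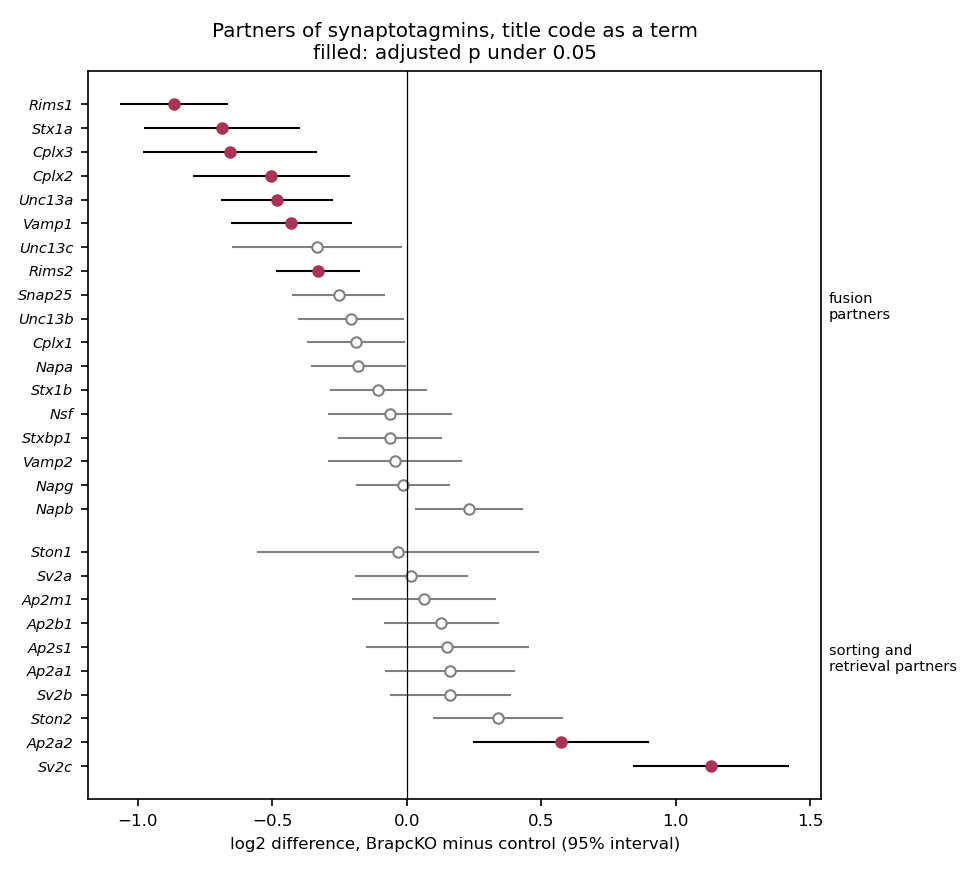
Log2 difference (BrapcKO minus control, title code as a term) with its 95% interval for 18 fusion partners and 10 sorting and retrieval partners, filled where the adjusted p was under 0.05. Filled points of the first list are all below 0, down to -0.87 for Rims1, and those of the second above 0, up to 1.13 for Sv2c.

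Markers of other cells were counted too, where 4.95% of all genes fell and 3.12% rose. Excitatory neuron markers had 2 lower of 6, Camk2a (-0.56) and Neurod6 (-0.62). Slc17a7 went the other way, at 0.31 (edgeR adjusted p 0.19), and was not called. The sums of the 6 were 2810 to 3420 CPM in control against 2517 to 3071 in BrapcKO. General inhibitory markers had 3 higher of 7, among them Gad2 (1.23), with sums of 1081 to 1190 against 1298 to 1889. Astrocyte markers had 2 higher of 8, Gfap (2.05) and Vim (1.81). Astrocyte sums overlapped, at 4573 to 6415 CPM in control and 4262 to 8186 in BrapcKO. Microglia markers had 1 higher of 7, and oligodendrocyte, endothelial and choroid plexus markers 0 called. Microglial sums were 287 to 316 CPM in control against 368 to 1003 in BrapcKO (BrapcKO 05 highest), and oligodendrocyte sums 3183 to 4410 and 2344 to 3230. Choroid plexus markers summed to 2291 CPM in control 24 and to 36.4 to 662 in the other libraries. The part of these cells in the synaptotagmin values was not tested.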

How the data were processed

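The authors' deposited table holds raw read counts per gene in 10 cortex libraries. The tools named per the submitters' processing notes are Subread with featureCounts, FastQC, edgeR and DESeq2, and the builds GRCm38 and mm10. Their versions, order, filters and strand setting were not found in these sources. Symbols, coordinates and exonic lengths came from GENCODE M21 (GRCm38), which matched all but 5 of 14276 identifiers; promoter windows came from RefSeq (GRCm38.p6). The table holds few genes of low expression: the fifth highest library of every gene was at least 0.562 CPM.

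Counts were compared with edgeR 4.0.16 in R 4.3.3 (quasi-likelihood, robust, TMM, group and title code as terms, Benjamini-Hochberg over all genes). The default low-count filter removed 0 genes. Intervals are 95%. CPM per kilobase divides TMM-scaled CPM by the union of exons. The Y-linked score is the mean log2 CPM (prior count 1) of 4 Y-linked genes. Alternatives were limma-voom (limma 3.58.1), DESeq2 1.42.0, other scalings, filters and terms, single title codes, and each library left out. The code was tested on simulated data. Replicates were no repeats of one library (chi-square per degree of freedom 7.15 to 96.3). The 10 genes and the lists were chosen with earlier results of these data known. All 10 genes are named; of other synaptotagmins and C2 relatives the called ones, of partner and activity lists up to 4 called, and of marker lists up to 2, with Pvalb in any case. The 4 uncalled synaptotagmins, Sv2a, Sv2b, Cplx2, Slc17a7 and Ddx3y were named outside that rule, after their values were seen.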

Additional observations from a re-analysis of the deposited data

Results flagged for a closer look

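In 6 of 52 groups of 5 libraries, taken over the named genes, 1 library stood far from the other 4; chance flags about 1 in 20 such groups. Among the 10 synaptotagmins this was Syt4 in control 24, at 234 CPM against 295 to 324 in the other controls. Control 24 also stood apart in Stx1a (241 CPM against 157 to 171), in Cplx2, a complexin (1486 against 1027 to 1072), and in Sv2c (62.1 against 86.7 to 94.1). BrapcKO 21, the only B2 library of its group, stood apart in Doc2a (57.9 CPM against 13.4 to 20.1) and in Rph3a (125 against 160 to 173).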

How the results depend on the processing

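Syt1 was negative in all 23 alternatives, at -0.40 to -0.31 over all of them, and was called in 19. It was not called with the Y-linked score, without BrapcKO 21, in B1 alone (-0.31, edgeR adjusted p 0.063) or in B2 alone (-0.40). The number of the 10 genes called was 2 (Syt1 and Syt5, 1 lower and 1 higher) with library totals, DESeq2 or the likelihood-ratio test, 0 with the Y-linked score or in B1 or B2 alone, and 0 (without BrapcKO 21) to 2 (without BrapcKO 05) with 1 library left out (lower 0 to 1, higher 0 to 1). The table-wide count of 1152 (706 lower, 446 higher) became 617 (356, 261) with group as the only term, 328 (233, 95) with the Y-linked score, 415 (303, 112) in B1, 54 (16, 38) in B2, and 406 to 1454 (289 to 880, 117 to 617) with 1 library left out (558 without control 08, 516 without control 09, 406 without BrapcKO 21). Higher calls were 296 without control 23 and 709 by DESeq2. Signs changed only for small or unstable differences: Syt3 was 0.0023 with library totals, 0.0739 in B1 and -0.1081 to 0.0683 with 1 library left out. Syt11 was 0.017 with library totals, 0.0065 with group as the only term, 0.0319 in B1 and -0.056 to 0.0265 with 1 left out. In B2 Syt10 was -0.1753 and Syt4 0.0309, and Doc2a was -0.12 with group only. Doc2a was also not called with the Y-linked score, without control 09 or BrapcKO 21, or in 1 code alone. No paired analysis was possible because the groups share no replicate numbers. The B2 fit rests on 1 BrapcKO library, assumed to vary like the controls.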
